A study of Rattus norvegicus with 6 samples.

Results

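Fatty acid and triglyceride synthesis is described here through 10 genes: Acly, Acaca, Fasn, Elovl6, Fads1, Fads2, Gpam, Mogat2, Dgat1 and Dgat2. They were taken from a list of gene names and found on the arrays by matching each probe's RefSeq transcript to the current rat symbol. All 10 matched, through 20 probes, and all 10 were among the 31582 genes or sequences tested. The members of the list were chosen with earlier results of these data known, so their number of changes is not independent evidence.

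Renal cortex RNA came from 6 Sprague-Dawley rats, all males purchased at an age of 5 weeks, and each animal had its own one-colour Agilent array. The control group of 3 rats received corn oil, the vehicle, for 4 weeks. The other 3 rats received 1000 mg/kg/day of the brominated diol 2,2-bis(bromomethyl)-1,3-propanediol (BBMP), also for 4 weeks. The control arrays shared slide 1 and scan 1 and the BBMP arrays slide 2 and scan 2, which means that the effects of slide and scan cannot be told apart from treatment.

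A value is the processed signal of a probe divided by the 75th percentile of its array, called signal below. It has no unit, and its size cannot be compared between probes. Each gene is given by its brightest probe. Differences are BBMP minus control on the log2 scale, tested with limma over all genes with Benjamini-Hochberg adjustment, and a gene rose or fell where the adjusted p was under 0.05. A control array had 67.2% to 68.6% of its probes well above background and a BBMP array 70.5% to 72.7%. The 75th percentile itself was 943 to 950 in control and 1244 to 1259 in BBMP arrays. Neither measure overlapped between the groups. The probes that represent the 10 genes were well above background on all 6 arrays. The 8 proximal tubule markers, such as the phosphate transporter gene Slc34a1, were well above background on all arrays. Their summed signal was 1628 to 1762 in control and 1698 to 1742 in BBMP samples, and the groups overlap. Here and below, a summed signal is carried mostly by its brightest probes. It is no measure of the amount of a cell type or tissue. In RNA from whole cortex, fewer cells of a type and less RNA per cell cannot be told apart.

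Fatty acids are built in the cytosol from acetyl-CoA that ATP-citrate lyase makes from exported citrate. Acetyl-CoA carboxylase turns it into malonyl-CoA, fatty acid synthase joins these units into palmitate, and elongases and desaturases lengthen the chain and add double bonds. Triglyceride is then assembled on glycerol phosphate or on monoacylglycerol, and the diacylglycerol acyltransferases add the last chain. The proximal tubule lives mainly on burning fatty acids and can store those it takes up as triglyceride droplets.

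Of the 10 genes, 6 rose and 1 fell in BBMP samples. Across all genes tested, 10.2% rose, 7.68% fell and 17.9% changed. The split over all genes moved with the scaling: 3232 rose and 2427 fell as reported, against 2102 and 3749 with scaling to the array median, 2917 and 5093 with normexp background correction, and 2538 and 2906 with cyclic loess. Acaca, Fasn, Fads2, Mogat2, Dgat1 and Dgat2 rose between 1.25-fold and 2.08-fold, and Acly fell 1.30-fold. Fads1, Elovl6 and Gpam did not pass the test. The median log2 difference was 0.34 over the 10 genes and 0.049 over all genes. The groups did not overlap in 7 of the 10 genes, the same 7 that were called, against 43.6% of all genes.

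**Figure D1:**
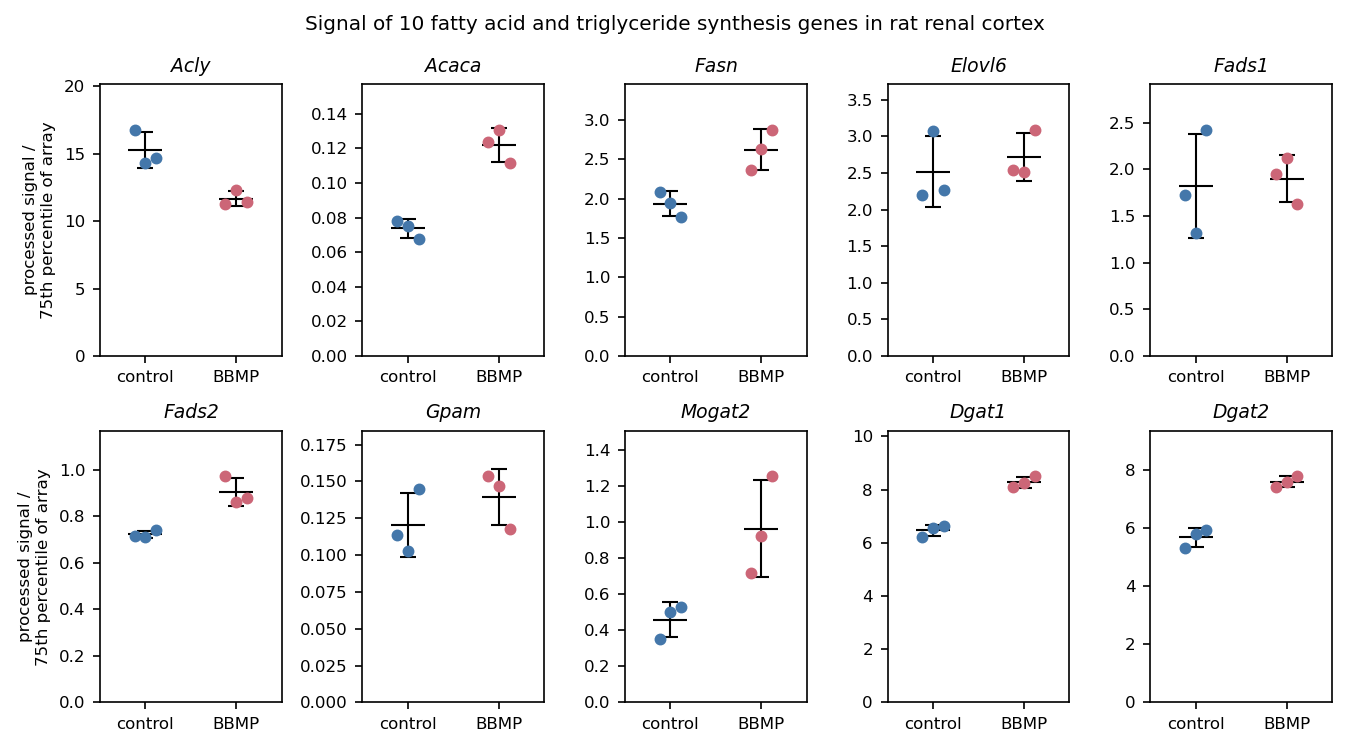
Signal of each gene (processed signal over the array's 75th percentile, linear axis from 0) in the 3 control and 3 BBMP samples; points are animals and bars are the mean with its SD. The BBMP points lie above the control points for Acaca, Fasn, Fads2, Mogat2, Dgat1 and Dgat2 and below them for Acly, and the groups overlap for Elovl6, Fads1 and Gpam.

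Acly encodes ATP-citrate lyase, which supplies cytosolic acetyl-CoA. Its signal was 16.8, 14.3 and 14.7 in control samples 1, 2 and 3 and 11.3, 12.3 and 11.4 in BBMP samples. Each BBMP sample was below each control sample. The log2 mean of the 3 control samples was 3.93 ± 0.12 (SD) and that of the 3 BBMP samples 3.54 ± 0.07 (SD), a log2 difference of -0.38 ± 0.09 (SE; limma adjusted p = 0.0345). The other probe of Acly went the same way, at a log2 difference of -0.30 (limma p adjusted over all probes = 0.0408).

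Promoter windows from RefSeq, on the GRCr8 build, were at hand for 4 of the 10 genes, among them Acly, which fell, and Fads2, which rose. Both are shown because they are the 2 changed genes with a window and they moved in opposite directions. Each run is the 250 bases before the annotated start of the gene, 5′ to 3′ on the gene's strand, at chr10:85963632-85963881 (minus strand) for Acly and chr1:216172034-216172283 (minus strand) for Fads2. Capitals mark matches on either strand to GGGCGG, the box bound by Sp1, or CCAAT, the box bound by NF-Y; no match to one overlaps a match to the other.
Acly: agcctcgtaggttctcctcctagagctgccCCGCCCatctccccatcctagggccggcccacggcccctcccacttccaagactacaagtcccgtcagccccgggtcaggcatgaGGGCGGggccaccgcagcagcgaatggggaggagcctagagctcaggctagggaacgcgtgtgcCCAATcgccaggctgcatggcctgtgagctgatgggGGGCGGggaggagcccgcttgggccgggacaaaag
Fads2: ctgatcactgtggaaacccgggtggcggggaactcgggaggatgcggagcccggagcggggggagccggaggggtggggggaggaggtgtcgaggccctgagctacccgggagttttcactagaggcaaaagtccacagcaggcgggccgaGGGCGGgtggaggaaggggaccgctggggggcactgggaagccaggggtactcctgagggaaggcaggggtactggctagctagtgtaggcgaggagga
Acly held 3 matches to GGGCGG and 1 to CCAAT. Fads2 held 1 match to GGGCGG and 0 to CCAAT. Among 33469 windows of the same length, 30.5% held GGGCGG and 34.0% held CCAAT on either strand. Neither window held CACGTG, the E-box bound by USF factors, which 5.59% of all windows hold. Each window was 68.0% G or C, against a median of 51.2% over all windows. These matches describe the letters only and are no measure of binding.

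Acaca encodes acetyl-CoA carboxylase, the step that commits acetyl-CoA to fatty acid synthesis. Its signal was 0.0783, 0.0752 and 0.0676 in control and 0.123, 0.131 and 0.111 in BBMP samples. The lowest BBMP sample was above the highest control sample, and the group means differed by 1.65-fold (log2 difference 0.73 ± 0.09, SE; limma adjusted p = 0.0129). The second probe of Acaca also had no overlap between groups, from 0.0531 to 0.0649 in control and from 0.0701 to 0.0768 in BBMP samples. Its log2 difference was smaller, at 0.31 ± 0.10 (SE), and it did not pass (limma p adjusted over all probes = 0.0778). Acaca is a dim gene here: it lies in brightness decile 3 of 10, where the median log2 difference of all genes was 0.12. With another background correction, normexp with an offset of 50, its difference was 0.36 and was still called (limma adjusted p = 0.0120). An offset shrinks log2 differences of dim probes, and that setting also started from the median spot signal. Which of these lowered the difference of Acaca was not tested.

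Fasn encodes fatty acid synthase, the enzyme that makes palmitate. Its signal was 2.09, 1.95 and 1.77 in control and 2.36, 2.63 and 2.88 in BBMP samples. The groups did not overlap, and Fasn rose 1.35-fold (log2 difference 0.44 ± 0.10, SE; limma adjusted p = 0.0393). The second probe of Fasn had a log2 difference of 0.29 ± 0.08 (SE), also without overlap, and did not pass over all probes (limma adjusted p = 0.0594).

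Elovl6 encodes the elongase that takes palmitate to stearate. Its signal was 2.20, 3.08 and 2.27 in control and 2.54, 2.51 and 3.09 in BBMP samples, and the ranges overlap widely. Control sample 2 and BBMP sample 3 were the high ones. The 95% confidence interval of its log2 difference ran from -0.27 to 0.51 (limma adjusted p = 0.628), and its second probe had the opposite sign, at -0.08.

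The front-end desaturases Fads1 and Fads2 act in turn to make polyunsaturated fatty acids such as arachidonate from dietary precursors, Fads2 as the delta-6 and Fads1 as the delta-5 enzyme. The signal of Fads2 was 0.716, 0.711 and 0.740 in control and 0.972, 0.861 and 0.877 in BBMP samples. The control samples lay close together and all BBMP samples were above them, a rise of 1.25-fold (log2 difference 0.32 ± 0.07, SE; limma adjusted p = 0.0326). The second probe of Fads2 had the same difference, 0.32 ± 0.09 (SE), without overlap, and narrowly missed the threshold over all probes (limma adjusted p = 0.0577).

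Fads1, measured by 1 probe, was the most variable of the 10 genes among control samples, at 1.72, 1.31 and 2.42, against 1.95, 2.12 and 1.62 in BBMP samples. Its highest and its lowest value were both in control samples. The interval of its log2 difference, from -0.49 to 0.68, is wide enough to hold a change of the size seen in Fads2 in either direction (limma adjusted p = 0.796). That Fads2 passed and Fads1 did not is therefore no sign that they differ, and the difference between them was not tested.

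Gpam encodes the mitochondrial glycerol-3-phosphate acyltransferase, which starts the glycerol phosphate route to triglyceride. Its signal was 0.114, 0.103 and 0.145 in control and 0.154, 0.147 and 0.118 in BBMP samples. BBMP sample 3 lay within the control range, and the log2 difference of 0.22 had an interval from -0.19 to 0.62 (limma adjusted p = 0.379).

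Mogat2, a monoacylglycerol acyltransferase best known from fat absorption in the gut, had the largest difference of the 10 genes. Its signal was 0.350, 0.500 and 0.529 in control and 0.716, 0.922 and 1.25 in BBMP samples. The groups did not overlap, but both spread widely, with SDs of 0.32 and 0.40 on the log2 scale. Mogat2 rose 2.08-fold, with a 95% confidence interval of 1.35-fold to 3.20-fold (limma adjusted p = 0.0409). Its second probe was tighter, at 0.224, 0.247 and 0.222 in control and 0.352, 0.400 and 0.409 in BBMP samples, and rose 1.68-fold (limma p adjusted over all probes = 0.0123). The third probe of Mogat2 was not tested, since it was well above background on 0 of 3 control and 2 of 3 BBMP arrays. Its signal was 0.0050 to 0.013 in control and 0.014 to 0.021 in BBMP samples.

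Dgat1 and Dgat2 encode the 2 diacylglycerol acyltransferases, which are unrelated in sequence and both make triglyceride. The signal of Dgat1 was 6.23, 6.55 and 6.64 in control and 8.09, 8.26 and 8.51 in BBMP samples. Samples of each group lay close together and well apart from the other group, a rise of 1.28-fold (log2 difference 0.36 ± 0.06, SE; limma adjusted p = 0.0187). Both probes of Dgat1 were called, the second at a log2 difference of 0.32 (limma p adjusted over all probes = 0.0262).

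The signal of Dgat2 was 5.32, 5.79 and 5.94 in control and 7.42, 7.59 and 7.78 in BBMP samples. The groups did not overlap, and Dgat2 rose 1.34-fold (log2 difference 0.42 ± 0.07, SE; limma adjusted p = 0.0176). All 3 probes of Dgat2 were called higher, and the differences of its dimmer probes were larger, at 0.51 and 0.70. For the dimmest probe, the signal was 0.261 to 0.273 in control and 0.411 to 0.447 in BBMP samples. Dgat1 and Dgat2 thus had the closest replicates of the triglyceride genes, by their brightest probes: no SD exceeded 0.084 on the log2 scale, where those of Mogat2 and Gpam were 0.21 to 0.40.

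Over all probes of the 10 genes, 19 of 20 could be tested. Of these, 10 were called higher and 2 lower, where 10.3% and 7.46% of all probes were called, and 15 had no overlap between groups, against 43.4% of all probes. The probes of a gene share its transcript and are not independent. In no gene was a probe called against the direction of another. The probes of Elovl6 differed in sign, and neither was called.

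**Figure D2:**
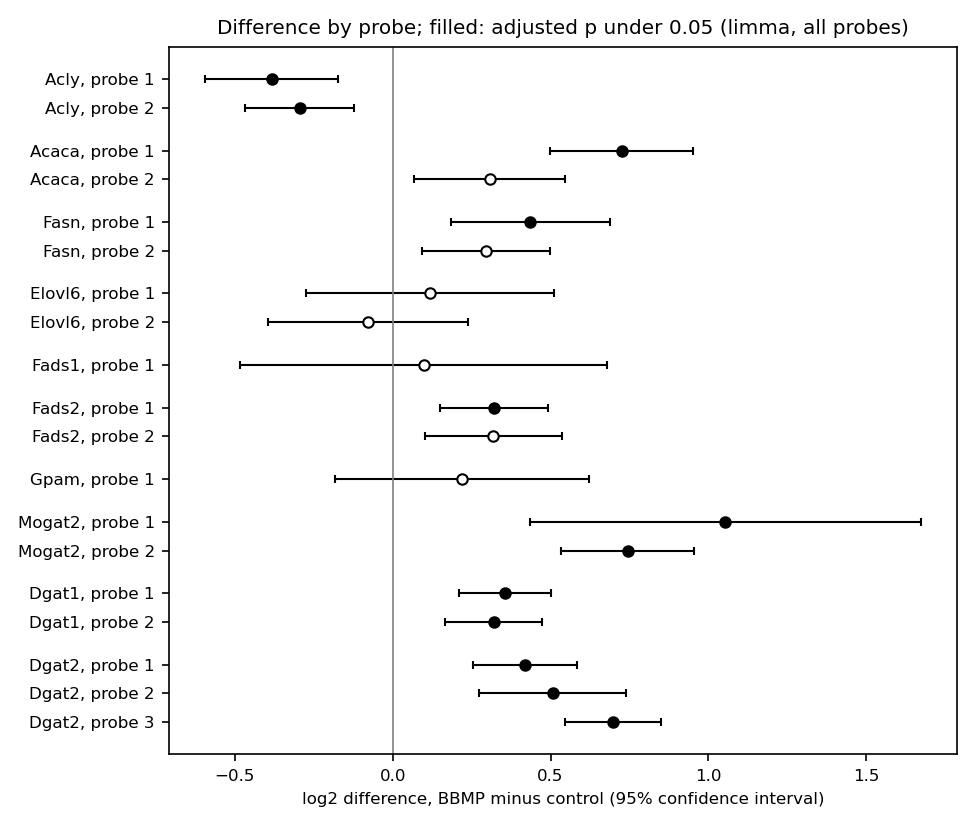
Log2 difference, BBMP minus control, of the 19 tested probes with the 95% confidence interval from limma; probes of a gene are ordered from bright to dim, and filled points passed the threshold over all probes. Both probes of Acly lie below 0, the 3 probes of Dgat2 lie above it, and the intervals of Fads1, Elovl6 and Gpam include 0.

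The other genes of lipid metabolism were taken from 7 lists with 96 genes in all, of which 82 were tested. Of these, 8 rose and 4 fell, or 9.76% and 4.88%, where 10.2% and 7.68% of all genes did. Their median log2 difference was 0.050, against 0.049 for all genes, so the shares and the median of these genes lay near or below the background.

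Among the genes of carbon and NADPH supply, Slc25a1, the mitochondrial citrate carrier that feeds ATP-citrate lyase, rose 1.22-fold, while Acly fell (limma adjusted p = 0.0311 for Slc25a1). With median scaling and with no filter on dim probes Slc25a1 was not called (limma adjusted p = 0.0694 and 0.0528). Its signal was 3.72 to 3.93 in control and 4.44 to 4.77 in BBMP samples. Me1, the malic enzyme of the cytosol, did not pass, at 0.06 ± 0.12 (SE) on the log2 scale.

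In malonyl-CoA and carboxylase control, 1 of 8 tested genes rose and 0 fell. Acacb encodes the second acetyl-CoA carboxylase, whose malonyl-CoA restrains fatty acid entry into mitochondria. Its signal was 0.0666 to 0.0751 in control and 0.0883 to 0.103 in BBMP samples, a rise of 1.36-fold (limma adjusted p = 0.0300). Acacb is also dim, and its call depended on the processing: with normexp its log2 difference was 0.060, against 0.44, and was not called (limma adjusted p = 0.567), and it was called in 5 of 13 other settings that kept all samples or slide row 1. Its second probe overlapped between groups and was not called (limma p adjusted over all probes = 0.594).

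In elongation and desaturation, 1 of 11 tested genes rose and 2 fell. Tecr, which encodes the enoyl-CoA reductase of the elongation cycle, rose 1.38-fold, from 22.8 to 24.9 in control and from 32.5 to 33.5 in BBMP samples (limma adjusted p = 0.0134), and all 3 of its probes were called higher. Hsd17b12 and Hacd1, which encode a ketoacyl-CoA reductase and a hydroxyacyl-CoA dehydratase of the same cycle, fell 1.37-fold and 1.21-fold (limma adjusted p = 0.0458 and 0.0351). Neither fall was called in any of the 6 fits with 1 sample left out. With no filter on dim probes both calls were lost (limma adjusted p = 0.0603 for Hsd17b12 and 0.0557 for Hacd1), and with quantile normalization that of Hsd17b12 was (limma adjusted p = 0.0506). The rises of Slc25a1 and Acacb were likewise called in 0 of the 6 fits with 1 sample left out. Of the called genes named below, Mgll, Slc27a1 and Insig1 were called in 1 of these fits, Fitm1 in 2, Gpat4 in 3 and Agpat5 in 4. Tecr was called in 4. Scd, a stearoyl-CoA desaturase gene, was not tested: of its 2 probes, 1 was well above background on no array and the other on 1 array.

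In acyl activation and glycerolipid steps, 1 of 18 tested genes rose and 1 fell. Gpat4, a glycerol-3-phosphate acyltransferase of the endoplasmic reticulum, had a signal of 1.54 to 1.61 in control and 2.02 to 2.05 in BBMP samples. It rose 1.30-fold, and both of its probes were called (limma adjusted p = 0.0152). Agpat5, a lysophosphatidate acyltransferase, had a signal of 1.09 to 1.19 in control and 0.646 to 0.753 in BBMP samples and fell 1.65-fold (limma adjusted p = 0.0116). The second probe of Agpat5 overlapped between groups and was not called, at -0.18 on the log2 scale against -0.72.

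In lipid droplets and triglyceride breakdown, 2 of 12 tested genes rose and 0 fell. Fitm1, which encodes a membrane protein that aids droplet formation, had a signal of 2.59, 3.22 and 2.64 in control and 5.16, 4.22 and 4.95 in BBMP samples. The groups did not overlap, and both probes of Fitm1 were called, the brighter one 1.70-fold higher (limma adjusted p = 0.0175). Mgll, the monoacylglycerol lipase gene, rose 1.33-fold, from 29.1 to 33.2 in control and from 39.1 to 44.6 in BBMP samples (limma adjusted p = 0.0276). Monoacylglycerol is the substrate of both this lipase and the enzyme encoded by Mogat2.

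In uptake, binding and lipoprotein assembly, 1 of 13 tested genes rose and 0 fell: Slc27a1, a fatty acid transport protein gene, rose 1.31-fold (limma adjusted p = 0.0460), and both of its probes were called. The call of Slc27a1 was lost with median scaling and with no filter on dim probes (limma adjusted p = 0.0780 and 0.0612), and among the 4 arrays in row 1 of their slides, 1 control and 3 BBMP, its log2 difference was 0.23, against 0.39. Of 15 genes of transcriptional control, 0 rose and 1 fell. An unadjusted limma p under 0.05 was given to 6 of them, and to 11564 of all 31582 genes tested. Insig1, which encodes an anchor that holds SREBP factors in the endoplasmic reticulum and is itself an SREBP target, had a signal of 5.85 to 6.22 in control and 4.34 to 4.68 in BBMP samples. It fell 1.32-fold (limma adjusted p = 0.0169), and 3 of its 4 probes were called lower.

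The other regulators chosen by name did not pass. The log2 difference was 0.17 ± 0.06 (SE) for Srebf2, -0.03 ± 0.07 for Scap, the escort of SREBP factors, 0.03 ± 0.07 for Nr1h3, which encodes the oxysterol receptor LXR alpha, and -0.14 ± 0.07 for Pparg. With normexp Pparg was at -0.30 and was called lower (limma adjusted p = 0.0272). Mlxipl, which encodes the carbohydrate-responsive factor ChREBP, was at 0.15 ± 0.15 (SE). No probe was matched to Srebf1, the gene of the SREBP form most tied to fatty acid synthesis, so it is not analysed here.

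**Figure D3:**
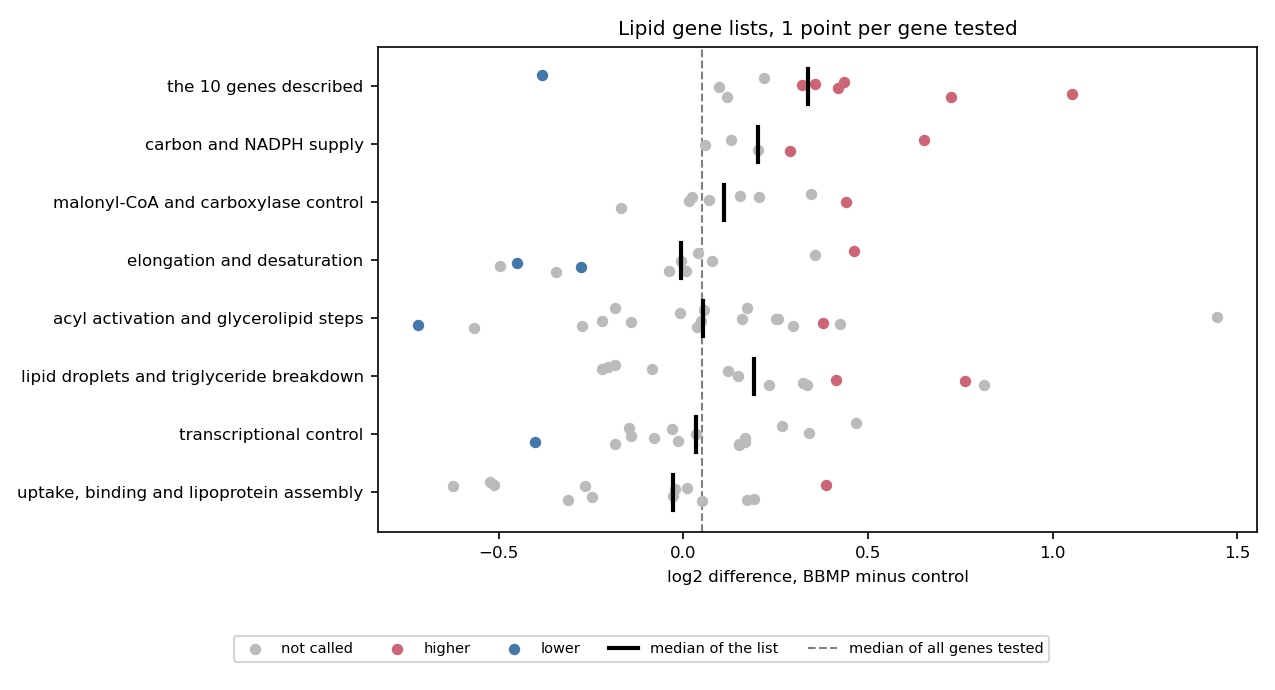
Log2 difference, BBMP minus control, of each tested gene of the 10 genes described and of the 7 other lists; colours mark genes called higher, called lower or not called, the solid bars are list medians and the dashed line is the median of all genes (0.049). The median of the 10 genes was 0.34, and those of the other lists were between -0.03 and 0.20.

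Some of these genes are also strongly expressed in fat and in the adrenal gland, which lie next to the kidney. Among 8 adipocyte markers with a probe, 6 were well above background on all arrays and Lep, the leptin gene, on none; their summed signal was 1.31 to 1.98 in control and 1.74 to 2.65 in BBMP samples. Adipoq, the adiponectin gene, was at 0.733, 1.07 and 0.718 in control and 0.973, 1.45 and 1.05 in BBMP samples and did not pass (limma adjusted p = 0.183). The adipocyte ranges overlap, with BBMP samples 2 and 3 the highest. Among 10 adrenal markers, 4 were well above background on all arrays and Cyp11b1, Star and Dbh on none. The summed signal of the 10 was 2.99 to 3.32 in control and 4.09 to 4.39 in BBMP samples, without overlap. Most of that sum came from the probe of Th, at 2.07 to 2.14 in control and 2.63 to 2.77 in BBMP samples, so it mainly follows that probe. Of 6 adrenal markers tested, 2 rose and 0 fell, where 10.2% and 7.68% of all genes did. Cyp21a1 rose 1.51-fold and Th 1.28-fold (limma adjusted p = 0.0298 and 0.0168, named after their values were seen). Whether either tissue has a part in the differences of the 10 genes was not tested.

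The pattern of Acaca over the 6 samples was most like those of Grm2, Rbmx and Jsrp1. Likeness was ranked over 11588 genes with a symbol and a well detected probe on all arrays, by the mean absolute difference in log2 signal, each gene centred on its own mean. That difference was 0.058 for Grm2, 0.066 for Rbmx and 0.071 for Jsrp1, and the 3 genes were 1.55-fold to 1.66-fold higher in BBMP samples. They were picked for likeness to Acaca over the same 6 arrays, so a rise of similar size was fixed by the choice.

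Calls near the threshold moved with the processing. Scaled to the array median, Fasn and Fads2 were not called (limma adjusted p = 0.0625 and 0.0562), and with no filter on dim probes Acly, Fasn, Fads2 and Mogat2 were not (limma adjusted p = 0.0533 to 0.0565). The calls also rested on all 6 arrays. Of the 7 changed genes, limma called 2, 1 and 3 when control replicate 1, 2 or 3 was left out, 1 when BBMP replicate 3 was, and 0 when BBMP replicate 1 or 2 was. In each of these 6 fits all 7 had an unadjusted limma p under 0.05, as did 9614 to 10929 of the 31673 to 32189 genes tested. The direction of the 7 could not change, because their groups did not overlap. Over all genes the calls fell from 5659 to between 2 and 3966. Slide row differed within the control group, where replicates 1 and 2 were in row 2 and the other 4 arrays in row 1. With slide row as a block limma called 0 of the 10 genes. The difference is then that within row 1, which holds 1 control array, replicate 3, and the 3 BBMP arrays. There Acaca was at 0.85, Mogat2 at 0.83 and Acly at -0.33 on the log2 scale. Control replicate 3 lay outside the BBMP range in all 7 genes, so their direction was fixed in advance.

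**Figure D4:**
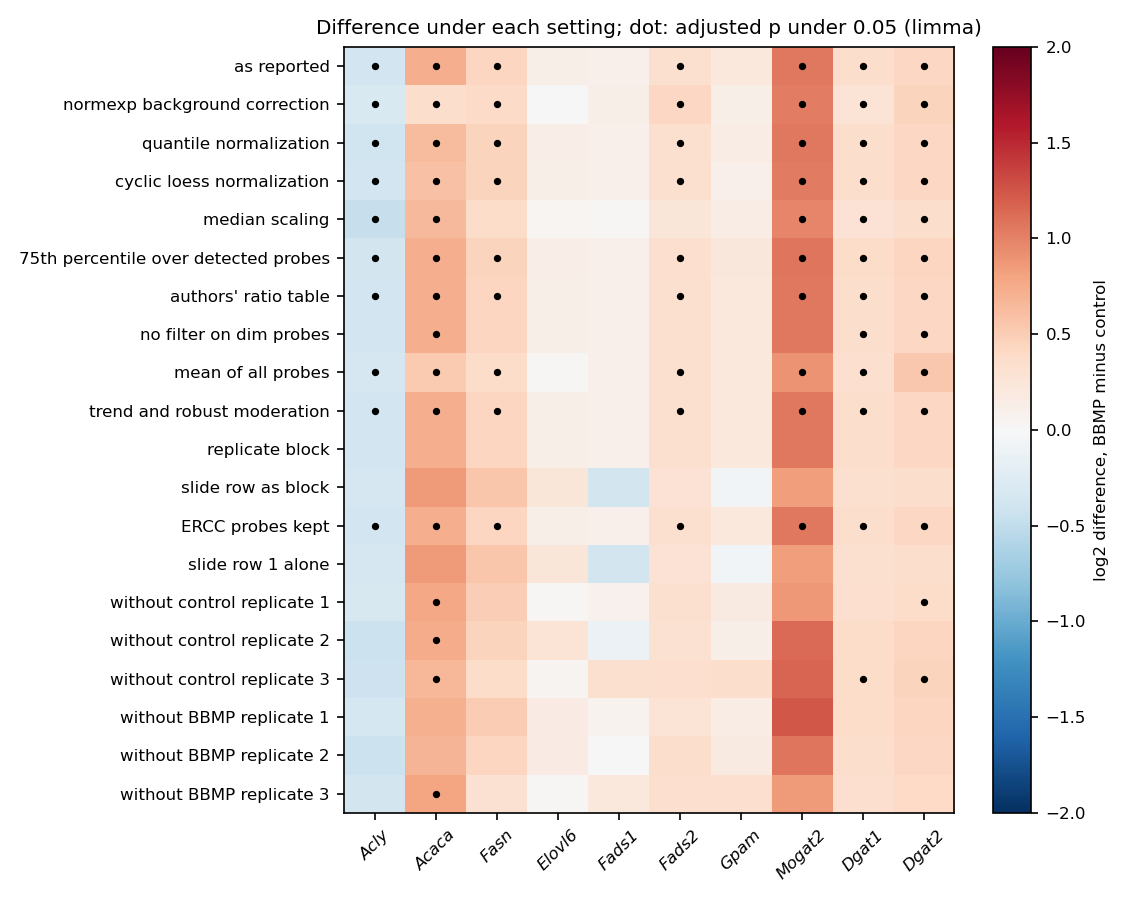
Log2 difference, BBMP minus control, of the 10 genes (columns) as reported and under each other processing setting or with 1 sample left out (rows); colour gives the difference, and dots mark an adjusted p under 0.05 from limma. Acly is lower and Acaca, Fasn, Fads2, Mogat2, Dgat1 and Dgat2 are higher in every row, while dots are missing with a replicate or slide row block and in slide row 1 alone, and are fewer with no filter, with median scaling and where a sample is left out.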

How the data were processed

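Total RNA of 3 control and 3 BBMP samples was labelled with Cy3, per the labels' protocols. Per the file headers, arrays were read with Agilent Feature Extraction 10.7.1.1 (10.7 in the submitters' processing notes), and the deposited files give each spot as a linear intensity, with flags scored 0 or 1 for spots well above background, saturated or outlying. A deposited table by the authors adds a ratio per probe, which equals the processed signal over the 75th percentile of an array of the same group. Each of its columns matched another replicate's scanner file, so replicate numbers are uncertain and group membership is not.

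From 61657 probes, 84 ERCC spike-in probes and 10 outliers were left out. The log2 of the processed signal over its array's 75th percentile was fitted with limma 3.58.1 in R 4.3.3, without covariates, for 31582 genes (brightest probe) and 42657 probes well above background on all arrays of a group. Symbols came from the GRCr8 RefSeq table by transcript. In simulated noise on 31582 genes, the fit recovered 31.3% of 67 genes changed 1.5-fold. It recovered 68.7% of 67 genes changed 2-fold and 83.3% of 66 changed 4-fold, with 6 false calls. The noise was independent between arrays, with no slide effect, and no other gene was changed. In the data 17.9% of genes were called, so these shares and false calls do not carry over to it.

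The members and lists were chosen with earlier results of these data known. Named genes were all members, up to 3 called genes per list and direction, and regulators chosen by name. A gene that this rule would name is not reported here. Normexp used the median spot signal, the raw signal in the files. Alternatives were tried for background correction, normalization, the authors' table, the dim-probe filter, the choice of probe, moderation, blocks, spike-ins and leaving out each sample; slide row 1 alone was added after seeing the data. Plots were made with Python 3.11.15 and matplotlib 3.10.9. With 3 arrays a group, their number limits the precision.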

Additional observations from a re-analysis of the deposited data

How the results depend on the processing

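Quantile and cyclic loess normalization, the percentile over detected probes, the authors' table, the mean of all probes, trend and robust moderation, normexp and kept ERCC probes left the counts of 6 members higher and 1 lower as they were; median scaling left 4 and 1. With no filter on dim probes 3 rose and 0 fell, with 5 and 2 of the other lipid genes, and 2102 of all genes rose. With slide row as a block, or row 1 alone, 0 members and 0 other lipid genes were called; over all genes these gave 0 and 0, and 8 and 31, with 7288 and 7171 at an unadjusted p under 0.05, and the lone control array of row 1 is assumed to vary like the BBMP arrays. Other lipid genes called lower, 4 as reported, were 9 with normexp, 7 with median scaling and 7 with trend and robust moderation. Of all genes, 3749 fell and 2102 rose with median scaling, and 5093 fell with normexp, which moved the median log2 difference from 0.049 to -0.062; with it 1 member probe was called lower. The cause was not tested.

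Leaving out 1 sample gave 0 to 3 members higher and 0 lower, 0 to 6 and 0 to 3 other lipid genes, 2 to 2402 and 0 to 1564 of all genes, and 0 to 6 and 0 member probes. The replicate numbers do not pair the samples: deviations of same-numbered samples correlated at -0.12, -0.08 and -0.07. With the replicate block limma called 0 of all genes in either direction, 0 members and 0 other lipid genes, where 9943 genes and 7 members had an unadjusted p under 0.05.

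Pparg, uncalled as reported, was called lower with normexp. None of the uncalled values that changed sign passed the test. Fads1 was at -0.36 with slide row as a block or row 1 alone and ran from -0.11 without control replicate 2 to 0.33 without control replicate 3, with Gpam at -0.061 and Mlxipl at -0.11 in those row fits. Elovl6 was at -0.0037 with normexp, where Scap was at 0.072, and with 1 sample left out Scap ran from -0.060 to 0.0084. Nr1h3 was at -0.041 with median scaling and ran from -0.0056 to 0.068 with 1 sample left out.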
